A study of Mus musculus with 12 samples.

Results

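Kidney ischemia-reperfusion injury (IRI) was compared with sham surgery in mice labelled as tubular Gpx3 knockouts (CKO). Knockout and CKO stand for that label throughout. These were 6 of the 12 libraries of renal cortex RNA in the series. The 3 injured knockout libraries (CKO IRI 7, CKO IRI 15 and CKO IRI 29) came from mice given 30 min of bilateral renal ischemia and 48 h of reperfusion. The 3 controls (CKO sham 1, CKO sham 2 and CKO sham 3) had the sham procedure and carried the same label, so the comparison shows the injury within that genotype and not the effect of a deletion. The other libraries were 3 wild-type sham (WT sham 1, 2 and 3) and 3 wild-type injured libraries (WT IRI 13, 24 and 49), which had the same surgery and times. The promoter that drove the deletion, the deleted part of the gene, the age and the strain were not found in the labels or design text. The labels do not say whether the libraries came from separate mice, and p-values therefore cover spread among libraries only, which may be technical. Transcript FPKM values (fragments scaled by transcript length and by library size) were summed per gene, and 11968 of the 13465 genes reached 1 FPKM in at least 3 of the 6 knockout libraries and were tested.

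Gpx3 encodes a secreted, selenium-containing glutathione peroxidase that the proximal tubule releases into the blood plasma, where it reduces hydrogen peroxide and lipid hydroperoxides. In IRI, the loss and return of blood flow damage mainly the proximal tubule. Surviving tubule cells lose transport and metabolic genes, switch on injury genes such as Havcr1 and Lcn2, and divide to replace lost cells, while endothelial loss, leukocytes and matrix cells change the tissue around them. In bulk RNA, fewer cells of a type and less RNA per cell cannot be told apart.

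Gpx3 itself stood at 2501, 3037 and 3299 FPKM in CKO sham 1, 2 and 3 and at 3723, 3025 and 2779 FPKM in CKO IRI 7, 15 and 29. The groups overlapped, and the log2 change was 0.11 (SE 0.36, limma adjusted p = 0.891, exact two-sided permutation p = 0.6, where 3 against 3 libraries cannot go below 0.1). The wild-type sham libraries held 5664, 4476 and 5371 FPKM, all above the 6 knockout libraries. The wild-type injured libraries held 2788, 3568 and 1075 FPKM and overlapped the injured knockouts. The sham libraries labelled CKO were thus lower in Gpx3 than sham WT, whereas the injured ones were not lower than injured WT. Gpx3 stayed abundant in every CKO library. The deleted part of the gene is not known, and whether these values reflect a deletion was not tested. Most of the signal in both knockout groups came from Gpx3-201, of 3 deposited Gpx3 transcripts. Gpx3 lies at 11:54902453-54910377 on the plus strand of GRCm38.

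The tissue label was checked against markers because the extraction protocol in the labels speaks of joint capsule, whereas kidney is named as the tissue elsewhere in them. All 7 proximal tubule markers were in the table, and their sum was 2066 to 3025 FPKM in the CKO sham libraries and 1404 to 1893 FPKM in the CKO IRI libraries. Prg4, Col2a1 and Acan, which mark joint surface and cartilage, had no row, and Comp stood between 0.214 and 1.60 FPKM. Summed FPKM per knockout library lay between 393677 and 422328. Replicates correlated at 0.96 to 0.982 in CKO sham and 0.933 to 0.96 in CKO IRI (Pearson, across genes on log2 values). On the first principal component of the 6 libraries, which held 52.8% of the variance, CKO IRI 15 (score 6.8) lay nearest to the shams (-33.7 to -27.5), and CKO IRI 7 (31.5) and CKO IRI 29 (51.0) lay farther away.

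After injury 671 genes were higher and 180 were lower in the knockout kidneys (limma on log2(FPKM + 1), adjusted p under 0.05). These are 5.61% and 1.5% of the genes tested, and 7.11% in either direction. The change was at least 1 on the log2 scale for 372 of the higher and 94 of the lower genes, and at least 2 for 101 and 11. Quantile normalization gave 509 higher and 297 lower genes, and scaling by trimmed means 527 and 248, with the median change of all genes moving from 0.08 to -0.02 and 0.01. CKO IRI 15 was the lowest of the 3 injured libraries in 535 of the 671 higher genes and the highest in 120 of the 180 lower genes. The median change from the CKO sham mean over the higher genes was 1.15 in CKO IRI 7, 0.80 in CKO IRI 15 and 1.32 in CKO IRI 29. All 671 higher genes except 2 and all 180 lower genes had injured and sham libraries that did not overlap, where 21.3% of all tested genes were higher without overlap and 10.2% were lower without overlap.

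Many of these calls depended on the libraries in the fit. With the 6 knockout libraries alone, 367 genes were higher and 108 lower (3.07% and 0.902%), of which 335 and 77 were also called in the fit of all 12. The number of higher genes was 330 without knockout sham 2, 321 without knockout sham 3, 332 without knockout IRI 7 and 377 without knockout IRI 29. The number of lower genes was 116, 60 and 66 without knockout sham 1, 2 and 3, 73 without knockout IRI 7, 85 without knockout IRI 29 and 369 without knockout IRI 15. Leaving out a wild-type library also moved the lower genes, to 106, 112 and 105 without wild-type sham 1, 2 and 3 and to 370 without wild-type IRI 49, since the spread is shared between groups. Calls were kept in the fit of the 6 knockout libraries and in each of the 12 fits that left out 1 library for 254 higher and 39 lower genes; these calls are named kept throughout. Genes that reached 1 FPKM in no CKO sham library passed the filter only through the injured group and had to be higher there, and 145 of these 191 genes were called. The plot of gene lists shows the share of each list that was called.

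**Figure D1:**
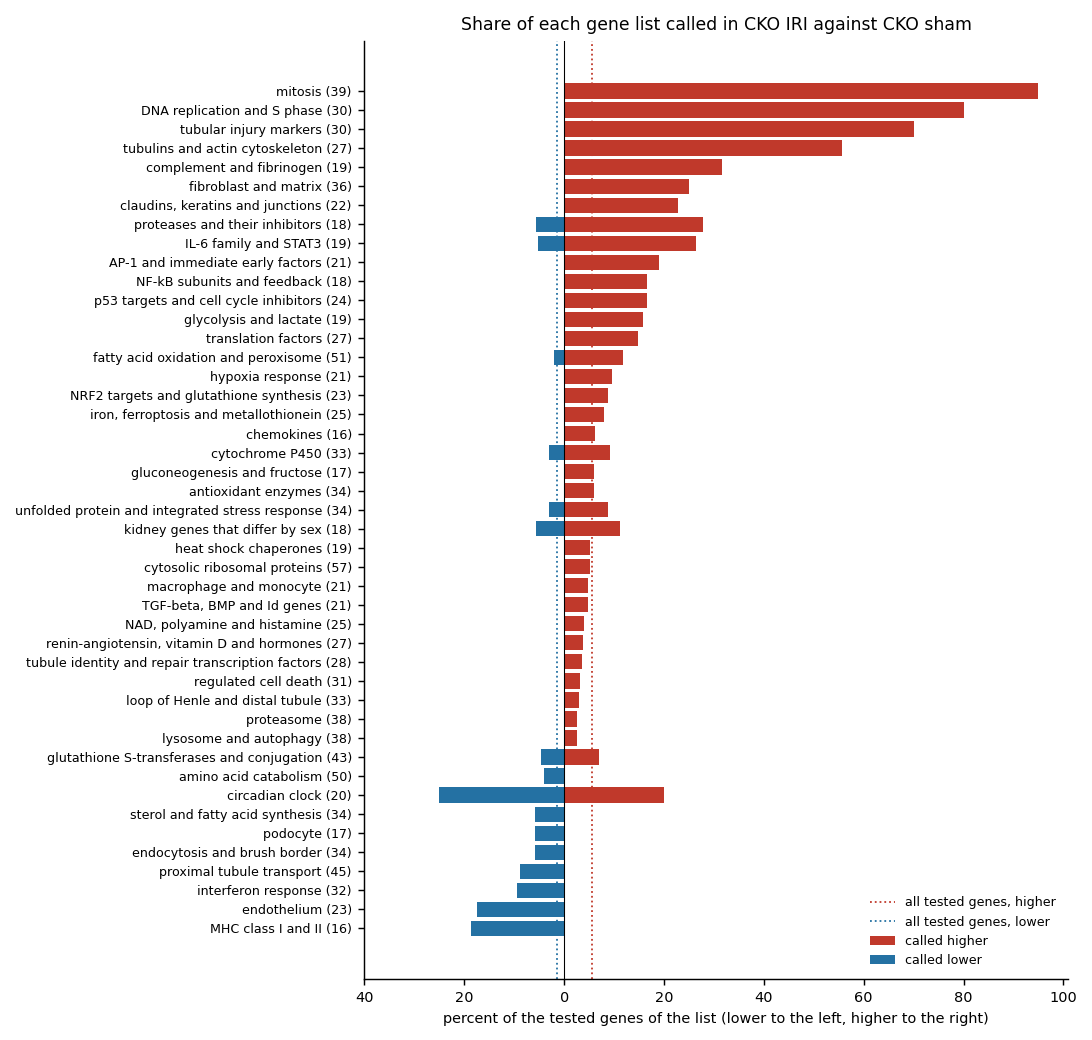
Percent of the tested genes of each list that were called higher (bars to the right) or lower (bars to the left) in CKO IRI against CKO sham by limma at an adjusted p under 0.05, for lists with at least 15 tested genes and at least 1 call, with the number tested in brackets. Dotted lines are the shares over all tested genes, 5.61% higher and 1.5% lower. Mitosis, DNA replication and tubular injury genes have the longest bars to the right, and the circadian clock has long bars on both sides. The bars include genes that passed the filter only through the injured libraries and had to be higher. These were 25 of 39 mitosis, 5 of 30 DNA replication, 3 of 30 tubular injury and 2 of 20 clock genes. A further 1 of the 20 clock genes passed only through the shams and had to be lower.

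Genes of mitosis rose in the injured knockout kidneys. Dividing cells express them in the G2 and M phases, when chromosomes are condensed, attached to the spindle and pulled apart. Of 39 tested mitosis genes, 37 rose and 35 of these were kept throughout, against 5.61% of all genes tested. However, 25 of the 39 passed the filter only through the injured libraries. The count that bears on the group is that of the other 14, of which 12 rose. Of the genes named below, Mki67, Top2a, Aurka and Ckap2 passed only in this way and had to be higher after injury. Mki67, which encodes the proliferation antigen Ki-67, was at 0.787, 0.726 and 0.589 FPKM in CKO sham 1, 2 and 3 and at 15.3, 9.43 and 13.1 FPKM in CKO IRI 7, 15 and 29 (log2 change 2.98, SE 0.17, adjusted p = 1.86e-05). Cdc20, the activator of the anaphase-promoting complex, went from 1.84, 1.28 and 1.28 FPKM to 39.2, 20.1 and 28.7 FPKM. Ube2c, the ubiquitin-conjugating enzyme that works with it, went from 7.29, 5.18 and 4.29 FPKM to 77.7, 54.3 and 53.6 FPKM. In all 3 genes the injured libraries lay far above the shams, with the smallest injured value still more than the largest sham value. Cyclins Ccna2 and Ccnb2, which drive the kinase Cdk1, rose by 3.57 (SE 0.24) and 3.83 (SE 0.26). Aurka, a spindle pole kinase, rose by 3.01 (SE 0.19), Birc5, which encodes survivin of the chromosomal passenger complex, by 3.82 (SE 0.27), and Ckap2, a spindle protein, by 2.66 (SE 0.16), with adjusted p = 1.86e-05 for each of these 5 genes. Top2a, the enzyme that untangles sister chromatids, was at 0.648, 0.700 and 0.581 FPKM in the shams and 19.6, 9.79 and 17.6 FPKM after injury.

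Genes of S phase, when DNA is copied, rose more unevenly. Of 30 tested, 24 rose and 10 were kept throughout. The filter was passed only through the injured libraries by 5 of the 30, and 19 of the other 25 rose. Uhrf1 and Gins2, named below, passed only in this way and had to be higher after injury. With the 6 knockout libraries alone 10 of the 30 were called. Rrm2, the regulated subunit of ribonucleotide reductase, was at 3.53, 2.57 and 2.88 FPKM in the shams and at 65.4, 30.5 and 72.8 FPKM after injury (log2 change 3.76, SE 0.27, adjusted p = 1.86e-05). Tk1, thymidine kinase, rose by 2.67 (SE 0.30), Mcm5 of the replicative helicase by 2.47 (SE 0.34), Gins2 by 1.84 (SE 0.26) and Uhrf1, which carries DNA methylation through replication, by 3.02 (SE 0.43). Pclaf, which binds the replication clamp, stood among the 12 largest rises at 3.38 (SE 0.27). CKO IRI 29 held the highest and CKO IRI 15 the lowest value in each of Tk1, Mcm5, Gins2 and Uhrf1. The median of the list over the sham mean was 1.5 in CKO IRI 7, 0.84 in CKO IRI 15 and 2.29 in CKO IRI 29, whereas that of the mitosis list was 2.99, 2.15 and 2.81. Of 24 tested p53 targets and cell cycle inhibitors 4 rose, and 3 were kept throughout. These 3 were Cdkn1a, which encodes the inhibitor p21 (9.10, 5.20 and 5.72 FPKM in the shams, 57.1, 32.6 and 53.9 FPKM after injury, log2 change 2.66), Cdkn2c (1.03) and Gdf15 (1.78).

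Promoters of many late cell cycle genes carry a CCAAT box and a CHR element (TTTGAA), the elements bound by NF-Y and by the MuvB complexes. RefSeq promoter windows (GRCm38.p6) from 250 bases before to 50 after the start were found for 32 of the 39 mitosis genes, in 34 windows. Both CCAAT and TTTGAA, on either strand and at any spacing, were found in 22 of these 34 windows (64.7%), against 6.95% of all 32851 windows and 4.82% of the windows of tested genes. The S phase list had both in 1 of 30 windows (3.33%). The 250 bases upstream of the start are shown, 5′ to 3′ along the gene, for 3 mitosis genes with large rises, with each CCAAT or TTTGAA match on either strand in capitals. The windows are 4:118437344-118437593 (minus strand) for Cdc20, 2:164769679-164769928 (plus strand) for Ube2c and 11:99024190-99024439 (minus strand) for Top2a. Cdc20 holds 2 CCAAT matches and 1 TTTGAA, Ube2c 6 and 1, and Top2a 6 and 2; the TTTGAA nearest the start begins 18, 29 and 23 bases before it. Such matches describe the letters and do not show binding.
Cdc20: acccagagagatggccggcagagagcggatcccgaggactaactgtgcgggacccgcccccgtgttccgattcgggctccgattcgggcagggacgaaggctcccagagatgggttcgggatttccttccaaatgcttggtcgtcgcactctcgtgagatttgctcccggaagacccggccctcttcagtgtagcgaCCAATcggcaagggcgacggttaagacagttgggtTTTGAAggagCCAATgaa
Ube2c: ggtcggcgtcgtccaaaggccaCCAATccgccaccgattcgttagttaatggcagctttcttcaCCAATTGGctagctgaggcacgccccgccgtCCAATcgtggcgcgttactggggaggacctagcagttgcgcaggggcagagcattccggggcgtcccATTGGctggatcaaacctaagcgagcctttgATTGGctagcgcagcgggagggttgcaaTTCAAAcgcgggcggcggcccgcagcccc
Top2a: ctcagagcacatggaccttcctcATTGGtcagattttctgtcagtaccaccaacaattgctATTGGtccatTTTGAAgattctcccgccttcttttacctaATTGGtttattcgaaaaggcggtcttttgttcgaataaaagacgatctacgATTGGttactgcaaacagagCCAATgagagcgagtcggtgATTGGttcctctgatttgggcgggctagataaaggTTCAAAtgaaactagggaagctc

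Tubular injury genes rose together, and they included the largest changes of the comparison. Of 30 tested, 21 rose, 13 of them kept throughout; the count lay between 14 and 26 when 1 library was left out. Of the 30, 3 passed the filter only through the injured libraries, Krt20 among them, and 20 of the other 27 rose. Havcr1, which encodes the phagocytic receptor KIM-1 of injured proximal tubule, was at 1.69, 1.67 and 3.05 FPKM in the shams and at 228, 90.6 and 408 FPKM after injury (log2 change 6.06, SE 0.49, adjusted p = 3.94e-05). Krt20, a cytokeratin found in stressed epithelium, went from 0.490, 0.373 and 0.367 FPKM to 50.9, 15.5 and 78.7 FPKM (log2 change 4.86, SE 0.59). Lcn2, which encodes the iron-siderophore carrier NGAL, went from 14.7, 7.27 and 4.78 FPKM to 181, 107 and 429 FPKM (log2 change 4.49, SE 0.55). All 3 genes had the same order of injured libraries, with CKO IRI 15 lowest and CKO IRI 29 highest, and no overlap with the shams. The most abundant called rise was Spp1, osteopontin, at 973, 1091 and 1135 FPKM in the shams and 3792, 2127 and 5423 FPKM after injury (log2 change 1.73, SE 0.27, adjusted p = 0.00375). S100a6, a calcium-binding protein, rose by 3.22 (SE 0.31) and Anxa3, an annexin, by 2.28 (SE 0.33). Timp1, an inhibitor of metalloproteinases, rose from 1.74, 1.03 and 1.68 FPKM to 24.2, 9.58 and 50.2 FPKM. S100a11 was at 430, 243 and 244 FPKM in the shams and 695, 578 and 753 FPKM after injury (log2 change 1.19, adjusted p = 0.0102), but its call was lost without knockout sham 2 or 3 and with the 6 knockout libraries alone (adjusted p = 0.054).

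The sequence TGANTCA, bound by AP-1 factors, was found in 8 of 27 RefSeq windows of tested injury genes (29.6%), against 7.81% of all windows, 5.07% of those of tested genes and 5.79% of the windows of genes called higher. The 250 bases upstream of S100a11 (3:93520246-93520495, plus strand) hold 2 matches, which begin 136 and 38 bases before the start and are in capitals. The window is shown because S100a11 is the injury gene among the 3 most abundant rises that has matches there.
S100a11: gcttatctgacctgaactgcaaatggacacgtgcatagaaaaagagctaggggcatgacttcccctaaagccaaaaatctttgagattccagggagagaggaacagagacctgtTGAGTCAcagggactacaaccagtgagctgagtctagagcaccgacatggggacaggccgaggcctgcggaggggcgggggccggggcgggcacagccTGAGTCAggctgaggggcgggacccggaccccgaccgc

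The AP-1 and immediate early genes themselves moved less. Of 21 tested, 4 rose, and none of these 4 calls was kept throughout; the count was 0 without knockout sham 2 or 3 or knockout IRI 7 or 29. The members called were Btg1 (log2 change 0.72, adjusted p = 0.0183), Fosl2 (1.05, adjusted p = 0.0212), Maff (1.48, adjusted p = 0.0225) and Myc (1.57, adjusted p = 0.0417). Fosl2, a Fos-family AP-1 subunit, was at 2.62, 2.26 and 2.34 FPKM in the shams and at 7.54, 4.14 and 7.03 FPKM after injury, without overlap. Of 19 tested EGF ligands, receptors and feedback genes none passed in the limma fits of 12 or of 6 libraries, 1 was higher at an unadjusted p under 0.05, and 1 was called without wild-type IRI 13 or knockout IRI 15. Nrg1, a ligand of ErbB receptors, was called but is not in this list, and its values are given under the other observations. Of 28 tested transcription factors of tubule identity and repair, Grhl2, a factor of epithelial junctions, was called (2.20, 1.05 and 1.69 FPKM to 4.90, 4.05 and 3.28 FPKM, log2 change 0.95, adjusted p = 0.017). A count of 1 in 28 is not above the 5.61% of all genes called higher. The count was 0 without knockout sham 2 or 3 or knockout IRI 7, 2 without knockout sham 1, 4 without wild-type IRI 13 and 6 without wild-type IRI 49.

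**Figure D2:**
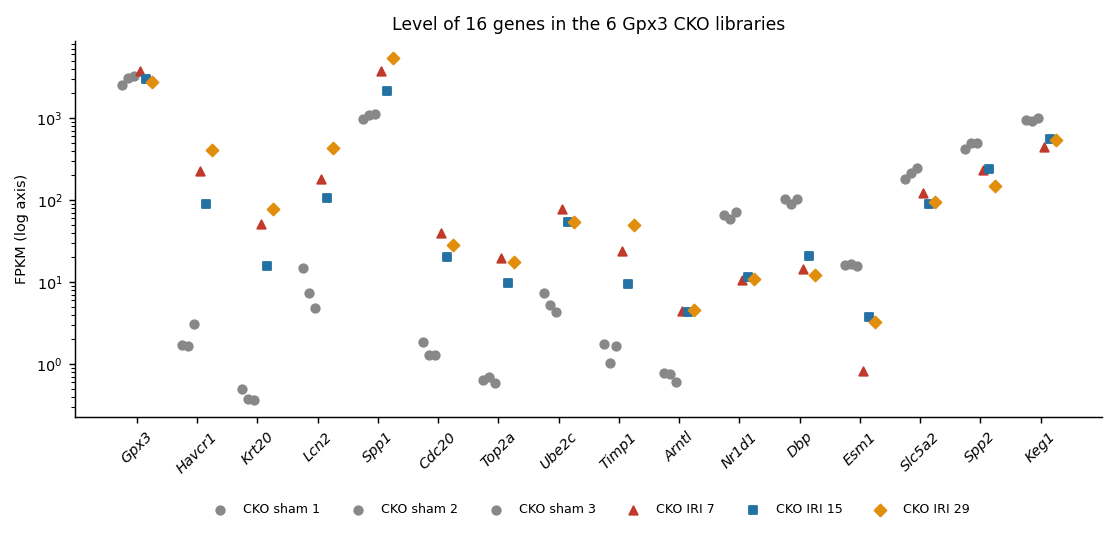
FPKM on a log axis of 16 genes in the 6 knockout libraries. Grey circles are CKO sham 1, 2 and 3, the red triangle is CKO IRI 7, the blue square CKO IRI 15 and the orange diamond CKO IRI 29. Gpx3 overlaps between the groups, the other genes do not, and CKO IRI 15 is the lowest injured library for Havcr1, Krt20, Lcn2, Spp1, Cdc20, Top2a and Timp1.

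Tubulin and actin genes rose with the injury genes. Of 27 tested, 15 rose and 9 were kept throughout. Tubb5, a beta-tubulin, was at 35.6, 30.6 and 30.1 FPKM in the shams and 128, 89.4 and 212 FPKM after injury (log2 change 2.04, SE 0.25, adjusted p = 0.000679). Tubb2b rose by 1.93 (SE 0.20), Tubb2a by 1.63 (SE 0.23), Tuba1b by 1.55 (SE 0.21) and Stmn1, a protein that destabilizes microtubules, by 1.65 (SE 0.20), and in each of them all injured libraries exceeded all shams. Tubulin genes have near-identical copies, between which the authors' assignment of reads can be uncertain. Of 22 claudins, keratins and junction genes 5 rose: Cldn7 (log2 change 0.73), Dsp (0.68), Cldn4 (1.79), Cldn1 (1.56) and Cldn6 (1.16). Cldn6 passed the filter only through the injured libraries, and 4 of the other 21 rose. None of the 5 calls was kept throughout, and their number was 0 without knockout sham 2 or 3 or knockout IRI 7, 1 without knockout IRI 29 and 3 without knockout sham 1.

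The IL-6 family list, which holds cytokines, receptors and STAT3 targets, had 5 rises and 1 fall among 19 tested genes, and 3 rises were kept throughout. Osmr, the oncostatin M receptor, was at 1.90, 1.00 and 1.48 FPKM in the shams and 4.30, 4.65 and 5.50 FPKM after injury (log2 change 1.25, SE 0.15, adjusted p = 0.000571). Stat3, the transcription factor downstream, went from 13.3, 14.3 and 12.9 FPKM to 29.8, 22.1 and 33.5 FPKM (log2 change 1.01, SE 0.16). Lrg1, an acute phase glycoprotein, went from 1.88, 1.04 and 1.67 FPKM to 12.9, 9.04 and 25.2 FPKM (log2 change 2.62, SE 0.39). Socs3, the feedback inhibitor, was called at 1.73 (adjusted p = 0.0152) and Csf1 at 1.03 (adjusted p = 0.0312). Both calls were lost without knockout sham 2 or 3 or knockout IRI 7 or 29 and in the fit of the 6 libraries, and that of Csf1 also without any 1 WT sham library. The member that fell, Socs2, which was named after its values were seen, had an adjusted p of 0.0435 and lost its call without any 1 of several libraries, wild-type shams included.

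Fibrinogen chains, made mainly by the liver and in injured tubules, were among the complement and coagulation genes that rose. Fga was at 10.46, 12.14 and 10.01 FPKM in the shams and 153, 43.6 and 102 FPKM after injury (log2 change 2.91, SE 0.43, adjusted p = 0.00257) and was kept throughout. Fgg went from 4.07, 4.71 and 5.58 FPKM to 92.0, 14.5 and 108 FPKM, and Fgb from 0.657, 0.749 and 0.836 FPKM to 13.8, 1.95 and 28.6 FPKM. CKO IRI 15 was the lowest injured library for all 3 chains but stayed above every sham. C3, the central complement component, rose by 1.82 (adjusted p = 0.0223) and Cfi by 1.39 (adjusted p = 0.0358). In all 6 of 19 tested genes of the list rose, and 2 were called with the 6 knockout libraries alone. Fgb passed the filter only through the injured libraries, and 5 of the other 18 rose. The full count was 2 without knockout sham 2 or 3 or knockout IRI 7 or 29 and 3 without knockout sham 1.

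Of 18 tested NF-kB subunits and feedback genes, Bcl3 (0.96), Nfkb2 (0.94) and Icam1 (0.62) rose. With the 6 knockout libraries alone none of the 18 was called by limma; the count was 0 without knockout sham 3, 1 without knockout sham 2 or knockout IRI 7, and 6 without wild-type IRI 49. Of 16 tested chemokine genes, the neutrophil attractant Cxcl1 rose, from 0.843, 1.32 and 0.039 FPKM to 15.3, 3.83 and 24.8 FPKM (log2 change 2.95, adjusted p = 0.00764), and lost its call with the 6 knockout libraries alone (adjusted p = 0.0557). A count of 1 in 16 is near the 5.61% of all genes called higher. The list had 2 rises without knockout IRI 15, and 1 fall without wild-type IRI 49 or with the 6 knockout libraries alone.

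Circadian clock genes changed in both directions. In this clock, the activators Arntl (BMAL1), Clock and Npas2 switch on E-box genes, among them the repressors Nr1d1 and Nr1d2 (REV-ERB), the Per and Cry genes and the output factor Dbp; REV-ERB in turn represses Arntl. Of 20 tested genes 4 rose and 5 fell, against 5.61% and 1.5% of all genes, and all 9 calls were kept throughout. Nr1d1 was at 65.4, 59.2 and 72.3 FPKM in the shams and at 10.7, 11.6 and 10.8 FPKM in CKO IRI 7, 15 and 29 (log2 change -2.47, SE 0.24, adjusted p = 0.000137). Dbp was at 104, 88.4 and 104 FPKM and fell to 14.6, 20.9 and 12.2 FPKM (log2 change -2.59, SE 0.45, adjusted p = 0.00659). Ciart, another repressor of the clock, fell from 10.4, 7.43 and 7.93 FPKM to 3.62, 3.21 and 2.31 FPKM. Arntl rose from 0.784, 0.752 and 0.601 FPKM to 4.47, 4.37 and 4.51 FPKM (log2 change 1.67, SE 0.23, adjusted p = 0.00169). Here CKO IRI 15 was as far from the shams as the other injured libraries. Npas2 rose by 1.02 (SE 0.13); Arntl and Npas2 passed the filter only through the injured libraries and had to be higher, and 2 of the other 18 genes rose. Bhlhe41 passed only through the shams and had to be lower, and 4 of the other 19 genes fell. Cry1 rose by 1.62 (SE 0.26). Nr1d2 (-0.81, SE 0.14) and Bhlhe41, both named after their values were seen, fell less far; Bhlhe41 had a change of -0.81 (SE 0.15). Per1, Per2, Per3 and Clock did not pass. The time of day at which tissue was taken was not recorded in the labels used here, and its part in these values was not tested.

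**Figure D3:**
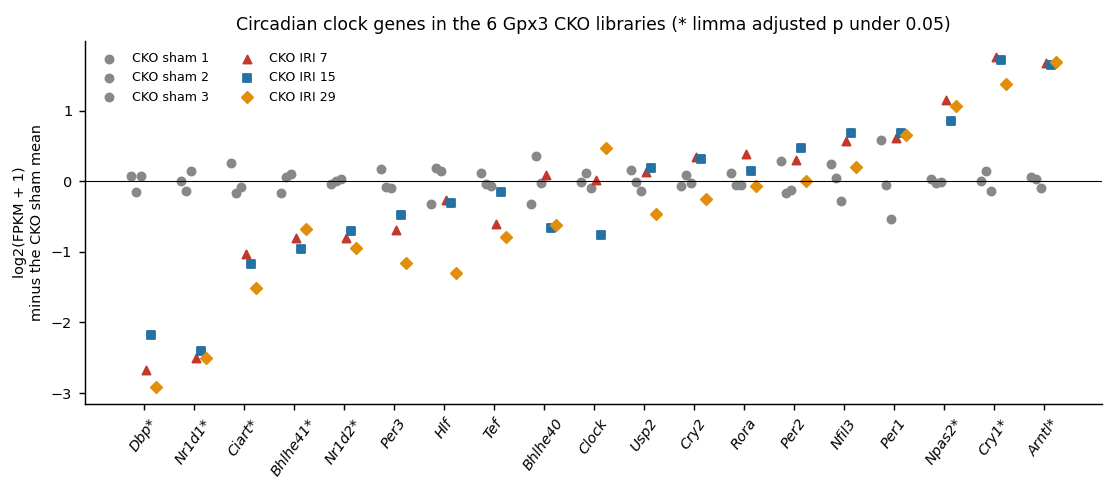
Level of 19 tested clock genes in each knockout library as log2(FPKM + 1) minus the mean of the 3 CKO sham libraries, ordered by the limma change. Stars mark the 8 genes with an adjusted p under 0.05, from Dbp (-2.59) and Nr1d1 (-2.47) on the left to Arntl (1.67) on the right.

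The E-box CACGTG was found in 6 of 22 RefSeq windows of the tested clock genes (27.3%), against 7.15% of all windows, 9.85% of those of tested genes, 8.52% of those of genes called higher and 7.93% of those of genes called lower. The 250 bases upstream of Ciart (3:95882229-95882478, minus strand) are shown because they hold 3 matches, in capitals, that begin 116, 58 and 44 bases before the start.
Ciart: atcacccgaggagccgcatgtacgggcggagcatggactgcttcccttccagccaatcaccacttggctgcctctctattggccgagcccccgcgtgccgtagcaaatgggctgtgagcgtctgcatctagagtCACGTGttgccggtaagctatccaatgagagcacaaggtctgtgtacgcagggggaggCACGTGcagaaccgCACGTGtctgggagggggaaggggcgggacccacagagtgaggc

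Proximal tubule transporters were lower at the median, but few passed the test. The proximal tubule takes back glucose, phosphate, amino acids and organic anions from the filtrate through these carriers. Of 45 tested genes 4 fell, against 1.5% of all genes, and the median log2 change of the list was -0.60 beside 0.08 for all genes. Slc5a2, the glucose transporter SGLT2, was at 180, 216 and 247 FPKM in the shams and 123, 90.4 and 94.2 FPKM after injury (log2 change -1.06, SE 0.17, adjusted p = 0.00363) and was the transporter whose call was kept throughout. Slc34a3, a phosphate transporter, was at 32.3, 41.8 and 42.5 FPKM in the shams and 15.8, 11.5 and 3.79 FPKM after injury (log2 change -1.98, adjusted p = 0.0286), and its call was lost without knockout sham 1, 2 or 3 or CKO IRI 29. Slc22a18 (-1.29, adjusted p = 0.0433) and the anion transporter Slc22a26 (-2.52, adjusted p = 0.0457) were called less firmly, and these 2 and Slc34a3 lost the call in the fit of the 6 libraries, in which 3 of the 45 genes were called lower. Without CKO sham 2 or CKO IRI 29 the count was 1, without knockout sham 1 or 3 or knockout IRI 7 or any WT sham library it was 2, and without wild-type IRI 49 it was 11. No library overlap was seen for 18 of the 45 genes, all lower, where 10.2% of all genes were lower without overlap.

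The list of endocytosis and brush border genes, with 34 tested, had 2 falls, which were also the most abundant called falls. These were Keg1 and Spp2, and neither encodes an endocytic receptor or a brush border enzyme. Keg1, a kidney-expressed glycine acyltransferase-like gene, was at 940, 933 and 993 FPKM in the shams and 447, 563 and 545 FPKM after injury (log2 change -0.89, SE 0.16, adjusted p = 0.0091). Spp2, a secreted phosphoprotein, was at 419, 495 and 499 FPKM and fell to 236, 237 and 148 FPKM (log2 change -1.21, SE 0.19, adjusted p = 0.00345). Both were kept throughout, and 5 of the 34 fell without wild-type IRI 49 or without knockout IRI 15. Timp3, a matrix-bound protease inhibitor and the third most abundant fall, was at 324, 467 and 416 FPKM in the shams and 191, 240 and 219 FPKM after injury, and its call (adjusted p = 0.0251) was lost without knockout sham 2 or 3 or knockout IRI 7 or 29. Of 33 genes of the loop of Henle and distal tubule, Stk39, a kinase that activates salt cotransporters, was called higher (log2 change 0.81, adjusted p = 0.0304). It lost the call without any 1 sham library of either genotype or CKO IRI 7. A count of 1 in 33 is not above the 5.61% of all genes called higher. This list had 1 fall without wild-type IRI 49 or knockout IRI 7 and 2 without knockout IRI 15. Of 28 collecting duct genes none passed in the limma fits of 12 or of 6 libraries, with 1 higher and 3 lower at an unadjusted p under 0.05 and 1 lower gene called without wild-type IRI 13 or 49 or knockout IRI 29. Segment markers varied between the injured libraries: Umod of the thick ascending limb was at 1305, 1441 and 582 FPKM in CKO IRI 7, 15 and 29, and Aqp2 of the collecting duct at 176, 374 and 206 FPKM.

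Fatty acid oxidation and peroxisome genes feed the ATP supply of the proximal tubule and are largely targets of PPARalpha. In the knockout they had more rises than falls. Of 51 tested genes 6 rose and 1 fell, against 5.61% and 1.5% of all genes. Without overlap 18 were higher and 7 lower, where 21.3% of all genes were higher and 10.2% lower without overlap. The median log2 change was 0.13 beside 0.08 for all genes. Cyp4a14, a fatty acid hydroxylase, was at 81.4, 136 and 130 FPKM in the shams and 382, 248 and 297 FPKM after injury (log2 change 1.42, SE 0.23, adjusted p = 0.00367) and was kept throughout. Slc25a20, which carries acylcarnitine into mitochondria, went from 43.2, 40.4 and 38.1 FPKM to 70.2, 63.9 and 56.9 FPKM (log2 change 0.63, adjusted p = 0.0141). Pex11a, a peroxisome division factor, went from 23.2, 25.6 and 21.1 FPKM to 40.8, 41.7 and 33.5 FPKM (log2 change 0.71, adjusted p = 0.0229). Fabp1 (1.75, adjusted p = 0.0316) and Acot1 (1.02, adjusted p = 0.0331) were also among the rises and were named after their values were seen. The fall was Acsm1, a medium-chain acyl-CoA synthetase, from 204, 214 and 196 FPKM to 68.1, 108 and 56.1 FPKM (log2 change -1.45, SE 0.26, adjusted p = 0.00856), also kept throughout. The number of rises was 1 without knockout sham 3, 2 without knockout sham 1 or 2 or knockout IRI 7, and 3 without wild-type sham 1 or with the 6 knockout libraries alone; the number of falls was 2 without knockout sham 1 or knockout IRI 15 and 3 without wild-type IRI 49.

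**Figure D4:**
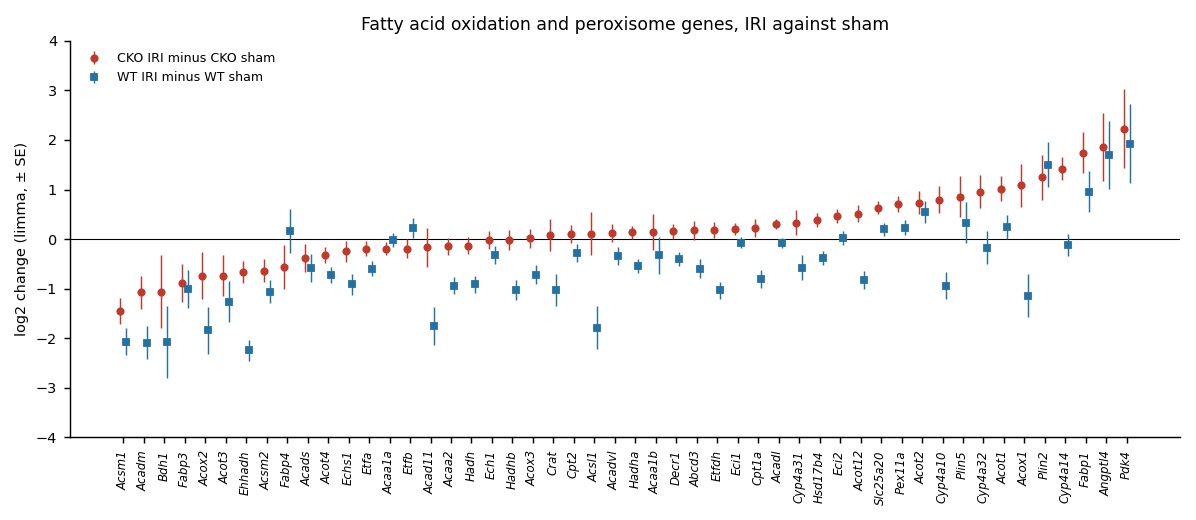
Log2 change after injury (limma on log2(FPKM + 1), with its standard error as bars) of 50 tested fatty acid oxidation and peroxisome genes, in CKO (red circles) and WT (blue squares), ordered by the CKO change. Most blue squares lie below the red circles of the same gene. The interaction test called none of the list's genes with all 12 libraries and 10 without wild-type IRI 49. That library's list median over the CKO sham mean was -0.08, beside -0.49 and -0.61 in WT IRI 13 and 24. CKO IRI 7, 15 and 29 stood at 0.26, 0.21 and -0.07.

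Calls in other metabolic lists are set beside 5.61% higher and 1.5% lower over all genes. Of 50 tested amino acid catabolism genes 28 were lower and 1 higher without overlap. Over all genes 10.2% were lower and 21.3% higher without overlap. The list median was -0.63, and 5 of the 50 were higher at the mean. The genes called lower were 2, Ddo (-0.69, adjusted p = 0.0212) and Kmo (-0.66, adjusted p = 0.0427). That count was 0 without knockout sham 2 or 3 or knockout IRI 7 or 29, 4 without wild-type IRI 24, 1 without any 1 WT sham library, 7 without wild-type IRI 13 and 9 without wild-type IRI 49 or knockout IRI 15. Of 34 sterol and fatty acid synthesis genes, Scd1, which desaturates fatty acids, was lower (132, 253 and 200 FPKM to 27.9, 69.2 and 15.3 FPKM, log2 change -2.56, adjusted p = 0.0361). Scd1 lost the call without any 1 of the 6 sham libraries, CKO IRI 7 and CKO IRI 29 (adjusted p = 0.0516 with the 6 knockout libraries alone), and the list had 2 falls, 0 without any 1 of the CKO libraries other than CKO IRI 15, 1 without any 1 WT sham library and 4 without knockout IRI 15. Of 19 glycolysis and lactate genes 3 rose: Ldha, lactate dehydrogenase A (0.56, adjusted p = 0.012), the lactate carrier Slc16a1 (1.73, adjusted p = 0.0275) and Pfkp (0.67, adjusted p = 0.0371). That count was 0 without knockout sham 2 and 1 without knockout sham 3 or knockout IRI 7. Among 33 cytochrome P450 genes 3 rose and 1 fell; Cyp4a14 was kept throughout, and Cyp4a12b, Cyp2j13 and Por were not. Cyp2j13 passed the filter only through the injured libraries, and 2 of the other 32 rose. That list had 1 rise without knockout sham 1 or 2 or knockout IRI 7, 5 without wild-type IRI 24, 6 without knockout IRI 15 and 9 without wild-type IRI 49. It had 0 falls without knockout sham 2 or 3 or knockout IRI 29, 2 without wild-type IRI 13 or 24, 3 without wild-type IRI 49 and 6 without knockout IRI 15. None of the 75 nuclear oxidative phosphorylation genes and none of the 13 mitochondrial genome genes passed in the limma fits of 12 or of 6 libraries. At an unadjusted p under 0.05, 3 of the 75 and 0 of the 13 were lower. Their medians were -0.16 and -0.31, and 4 of the 75 fell without knockout IRI 15.

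Vascular genes pointed downward. Every one of 23 tested endothelial genes was lower at the mean, 14 of them without overlap between the groups, and 4 passed the test, where 10.2% of all genes were lower without overlap and 1.5% were called lower. Esm1, which marks endothelium stimulated by VEGF, was at 16, 16.6 and 15.6 FPKM in the shams and 0.815, 3.71 and 3.26 FPKM after injury (log2 change -2.37, SE 0.36, adjusted p = 0.00269) and was kept throughout. Kdr, the main VEGF receptor, was at 11.8, 11.7 and 11.7 FPKM and fell to 2.40, 5.57 and 4.99 FPKM (log2 change -1.32, adjusted p = 0.0249). Cdh5, the endothelial cadherin (-1.02, adjusted p = 0.0329), and Tek, the angiopoietin receptor (-1.19, adjusted p = 0.0477), were called less firmly. The number of endothelial falls was 1 without any 1 of CKO sham 1, 2 and 3 and CKO IRI 7, 2 without knockout IRI 29 or any WT sham library, and 12 without knockout IRI 15. The 4 endothelial markers summed to 73.2 to 110 FPKM in CKO sham and 22.8 to 55.1 FPKM in CKO IRI.

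Blood content differed between libraries and is given beside these lists. The sum of the globin and heme markers was 106 to 458 FPKM in CKO sham and 16.7 to 139 FPKM in CKO IRI. None of 6 tested blood genes passed in the limma fits of 12 or of 6 libraries, although 1 was lower at an unadjusted p under 0.05, 1 was called lower without wild-type IRI 49, and the median was -2.12. Hba-a1, alpha globin, was at 206, 123 and 46.8 FPKM in the shams and 8.41, 29.1 and 55.8 FPKM after injury, so CKO IRI 29 overlapped CKO sham 3. The part of blood in the changes of other lists was not tested.

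Interferon response and MHC genes were mostly lower at the mean after injury than in CKO sham, but they were also lower in WT sham. Over the CKO sham mean, the interferon medians were -0.55, -0.48 and -0.45 in WT sham 1, 2 and 3. They were -0.47, -0.36 and -0.18 in CKO IRI 7, 15 and 29. The MHC medians were -0.22, -0.37 and -0.31 in WT sham and -0.37, -0.31 and -0.32 in CKO IRI. Within WT, 11 interferon genes were called higher after injury and 2 lower, and 6 MHC genes higher and 1 lower. Of 32 tested interferon response genes 3 fell, against 1.5% of all genes, with a median of -0.36. At the mean 6 of the 32 were higher. Without overlap 10 were lower and 0 higher, where 10.2% of all genes were lower and 21.3% higher without overlap. Iigp1, an immunity-related GTPase, was at 10.5, 10.4 and 7.88 FPKM in the shams and 1.88, 2.61 and 2.77 FPKM after injury (log2 change -1.63, SE 0.27, adjusted p = 0.00489) and was kept throughout. Gbp3, a guanylate-binding protein (-1.81, adjusted p = 0.0286), and Rsad2, viperin (-1.17, adjusted p = 0.0304), lost the call without any 1 of CKO sham 1, 2 and 3 and CKO IRI 7. The count was then 1, and it was 5 without wild-type IRI 13 or 49. Of 16 MHC genes 4 were higher at the mean, and 7 were lower and 1 higher without overlap. The calls were 3 class II genes, all lower, against 1.5% of all genes. Cd74, the invariant chain, was at 320, 247 and 228 FPKM in the shams and 133, 144 and 50.7 FPKM after injury (log2 change -1.40, adjusted p = 0.0296). H2-Eb1 (-1.76, adjusted p = 0.035) and H2-Aa (-1.99, adjusted p = 0.0371) had the same order of libraries, lowest in CKO IRI 29. None of the 16 MHC genes was called with the 6 knockout libraries alone or without knockout sham 1, 2 or 3 or wild-type sham 3; the count was 1 without knockout IRI 7 or 29 or wild-type sham 1 or 2 and 5 without knockout IRI 15.

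Among 21 macrophage and monocyte genes Cd14, a receptor for bacterial lipopolysaccharide, rose (8.79, 6.66 and 7.99 FPKM to 25.4, 19.7 and 19.8 FPKM, log2 change 1.36, adjusted p = 0.0115). That is 1 of 21, which is not above the 5.61% of all genes called higher. The count was 0 without knockout sham 2 or knockout IRI 7 and 2 without knockout IRI 15 or 29. Tubule cells can also express Cd14 after injury. The sum of 4 macrophage markers was 61.3 to 71.9 FPKM in CKO sham and 62.5 to 95.8 FPKM in CKO IRI, with Csf1r at 14.7, 22.6 and 5.72 FPKM and Cd68 at 9.82, 7.73 and 17.8 FPKM in CKO IRI 7, 15 and 29. Of 4 tested neutrophil genes 3 rose: Lcn2, which injured tubule also makes, S100a9 (0.573, 1.27 and 0.417 FPKM to 3.97, 7.13 and 9.83 FPKM, log2 change 2.14, adjusted p = 0.00273) and Retnlg, which stayed under 2 FPKM and passed the filter only through the injured libraries. Csf3r and Ly6g, further neutrophil markers, had no row in the table.

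Collagen genes were among the fibroblast and matrix genes that rose. Of 36 tested 9 rose and 4 were kept throughout; 3 of the 36, Lox among them, passed the filter only through the injured libraries, and 7 of the other 33 rose. Col1a1, a chain of type I collagen, was at 6.25, 3.63 and 6.64 FPKM in the shams and 40.6, 27.9 and 66.1 FPKM after injury (log2 change 2.77, SE 0.46, adjusted p = 0.00516). Col3a1 went from 7.99, 5.03 and 6.5 FPKM to 37.9, 34.5 and 59.0 FPKM (log2 change 2.56, SE 0.42). Lox, which crosslinks collagen, went from 0.839, 0.485 and 0.585 FPKM to 3.16, 6.20 and 3.88 FPKM (log2 change 1.69, SE 0.26), and here CKO IRI 15 was the highest library. Col18a1 rose by 0.99 (SE 0.17) and Col1a2 by 1.81 (adjusted p = 0.0212). The count was 4 without knockout sham 2 or 3 or knockout IRI 29, 5 without knockout sham 1 or knockout IRI 7 or any WT sham library. The 4 fibroblast markers summed to 27.1 to 48.1 FPKM in CKO sham and 104 to 148 FPKM in CKO IRI, a sum that includes Col1a1 and Col3a1. The other 2 markers overlapped between the groups: Dcn was at 26.7, 13.01 and 18.6 FPKM in the shams and 17.7, 33.8 and 8.05 FPKM after injury, and Pdgfrb at 7.1, 5.44 and 8.15 FPKM and then 7.53, 11.4 and 15.2 FPKM. Of 18 proteases and inhibitors 5 rose and 1 fell; Serpina10, which inhibits coagulation proteases, rose from 1.84, 1.42 and 0.694 FPKM to 18.3, 8.36 and 12.3 FPKM (log2 change 2.56, SE 0.28) and was kept throughout, as was Timp1. Mmp14 (1.23, adjusted p = 0.0193) and Adamts1 (1.03, adjusted p = 0.0361) were not. The rises of that list numbered 2 without knockout sham 2 or 3 or knockout IRI 7 or 29 and 3 without any 1 WT sham library.

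**Figure D5:**
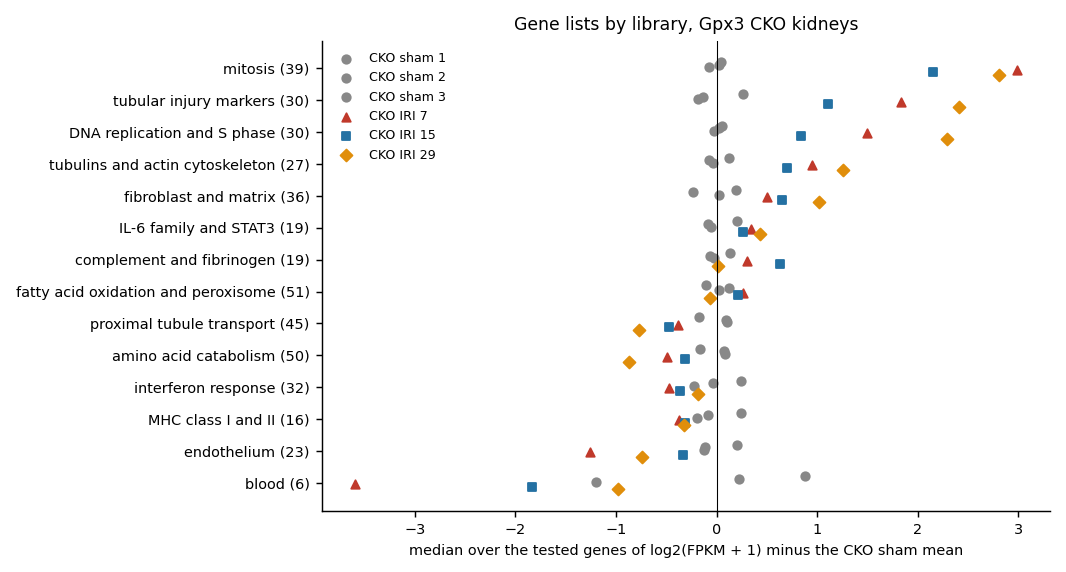
Median over the tested genes of 14 lists of log2(FPKM + 1) minus the CKO sham mean, for each of the 6 knockout libraries, with the number of tested genes in brackets. Grey circles are CKO sham libraries, the red triangle CKO IRI 7, the blue square CKO IRI 15 and the orange diamond CKO IRI 29. CKO IRI 15 has the injured median nearest to the shams for mitosis (2.15), tubular injury (1.11), DNA replication (0.84) and endothelium (-0.33). The sham libraries of the blood list spread from -1.20 to 0.88.

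Counts for the antioxidant systems around Gpx3, and for the lists after them, are set beside 5.61% higher and 1.5% lower over all genes. The antioxidant enzymes include the other glutathione peroxidases, catalase, superoxide dismutases, peroxiredoxins and thioredoxins. Of 34 tested, 2 rose, a count near the share over all genes, and the median log2 change was -0.06 beside 0.08 for all genes. Selenoh, a selenoprotein of the nucleolus, rose from 15.2, 13.8 and 10.7 FPKM to 39.3, 30.1 and 33.4 FPKM (log2 change 1.32, SE 0.17, adjusted p = 0.00107, kept throughout). The other was Gpx7, a peroxidase of the endoplasmic reticulum (0.80, adjusted p = 0.0459). The count was 1 without any 1 of several libraries, among them the 3 WT sham libraries, CKO sham 2, CKO sham 3, CKO IRI 7 and CKO IRI 29, 4 without wild-type IRI 13 or knockout IRI 15, and 5 without wild-type IRI 49. Gpx4, which protects membranes from lipid peroxidation and was named after its values were seen, stood at 631, 565 and 567 FPKM in the shams and 465, 594 and 501 FPKM after injury (log2 change -0.18, SE 0.15, adjusted p = 0.485). Of 23 NRF2 targets and glutathione synthesis genes, G6pdx (0.93, adjusted p = 0.0165) and Nqo1 (1.06, adjusted p = 0.0255) rose. That count was 0 without knockout sham 2 or 3, 1 without knockout IRI 29, 4 without wild-type IRI 13, 5 without wild-type IRI 49 and 6 without knockout IRI 15. In the list of iron, ferroptosis and metallothionein genes, 2 of 25 rose, Lcn2 and Acsl4, which supplies the lipids that are peroxidized in ferroptosis (6.81, 9.12 and 10.5 FPKM to 22.7, 13.8 and 31.8 FPKM, log2 change 1.22, adjusted p = 0.0301). The Acsl4 call was lost without any WT sham library, any CKO sham library, CKO IRI 7 or CKO IRI 29, and 4 genes of the list rose without wild-type IRI 49. Among 31 cell death genes Mlkl, the effector of necroptosis, rose from 1.02, 0.696 and 0.777 FPKM to 3.29, 2.22 and 3.67 FPKM (log2 change 1.13, SE 0.17, adjusted p = 0.00289) and was kept throughout. The list had 2 rises without knockout sham 1 or wild-type IRI 24, 3 without wild-type IRI 13 and 4 without wild-type IRI 49 or knockout IRI 15.

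Stress and growth lists gave scattered calls. Of 34 genes of the unfolded protein and integrated stress responses 3 rose and 1 fell. Psat1, of serine synthesis, was at 2.1, 5.88 and 5.27 FPKM in the shams and 29.7, 12.7 and 26.1 FPKM after injury (log2 change 2.14, adjusted p = 0.013, lost without knockout IRI 7 or 29), and Phgdh of the same pathway rose by 1.34 (adjusted p = 0.0491). Ddit3, which encodes the stress factor CHOP, fell from 32.9, 28.4 and 31.1 FPKM to 14.6, 19.6 and 20.5 FPKM (log2 change -0.74, adjusted p = 0.0279), a call lost without knockout sham 1, 2 or 3 or CKO IRI 7. The rises of that list numbered 0 without knockout IRI 7 or 29, 1 without any 1 of the 6 sham libraries and 5 without wild-type IRI 49. Of 21 hypoxia genes Ndrg1, one of the 3 most abundant rises, was at 263, 390 and 414 FPKM in the shams and 902, 624 and 659 FPKM after injury (log2 change 1.04, adjusted p = 0.015), and its call was lost without knockout IRI 7. The list had 2 rises, 0 without knockout IRI 7, 1 without knockout IRI 29 or any 1 sham library and 4 without wild-type IRI 13. Of 57 cytosolic ribosomal protein genes 54 were higher at the mean and 3 passed, Rpl3 (0.49), Rps4x (0.56) and Rpl10a (0.48). That count was 0 with the 6 knockout libraries alone and without any CKO library other than CKO IRI 15, and 1 without wild-type sham 2 or 3. Of 32 ribosome biogenesis genes none passed in the limma fits of 12 or of 6 libraries and 10 were higher at an unadjusted p under 0.05; 1 rose without wild-type IRI 13 and 5 without knockout IRI 15. Of 27 genes of renin, vitamin D and other hormone systems Sgk1, a kinase induced by corticosteroids that raises sodium uptake, rose from 51.8, 50.1 and 33.4 FPKM to 112, 123 and 80.1 FPKM (log2 change 1.20, SE 0.20, adjusted p = 0.00491) and was kept throughout; the list had 2 rises without wild-type IRI 13 or knockout IRI 15 and 4 without wild-type IRI 49. Ctsc, a lysosomal protease, rose by 0.83 (SE 0.13, adjusted p = 0.00404) among 38 lysosome and autophagy genes, of which 4 rose without knockout IRI 15.

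The largest falls outside the clock included genes whose calls rested on few libraries. Prok1, an angiogenic ligand, was at 4.90, 7.75 and 7.39 FPKM in the shams and 0.393, 0.768 and 0.004 FPKM after injury (log2 change -2.48, SE 0.35, adjusted p = 0.00174), and Msmp fell by 2.04 (SE 0.21, adjusted p = 0.000234); both were kept throughout, and both passed the filter only through the shams. Sec14l3 (-2.92, adjusted p = 0.0359), Akr1c14 (-2.74, adjusted p = 0.0475), Serpina1d (-2.28, adjusted p = 0.0225), Wfdc16 (-2.23, adjusted p = 0.0206) and C8a (-1.998, adjusted p = 0.0333) lost their calls with the 6 knockout libraries alone. In Sec14l3 the shams held 35.0, 30.1 and 15.9 FPKM and the injured libraries 1.91, 10.04 and 0.368 FPKM, with CKO IRI 15 closest to the shams.

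The same injury was also measured in wild-type kidneys, with the same spread per gene in the model and other sham libraries. In WT 24.6% of the tested genes were called higher and 12.2% lower. Of the 671 genes higher in CKO, 651 had the same sign in WT and 586 were also called there, with a median WT change of 1.34. Of the 180 lower genes, 170 had the same sign and 120 were also called, with a median of -0.87. The difference between the genotypes was tested by the interaction, the CKO change minus the WT change, which called 1 gene higher and 1 lower (0.00836% each, 0.0167% together), while 2168 genes had an unadjusted p under 0.05. Pofut2, which adds fucose to thrombospondin repeats in the endoplasmic reticulum, was at 23.3, 21.9 and 21.4 FPKM in CKO sham and 8.75, 9.09 and 9.96 FPKM in CKO IRI, but at 19.8, 20.5 and 20.4 FPKM in WT sham and 26.9, 30.7 and 30.2 FPKM in WT IRI (interaction -1.69, SE 0.14, adjusted p = 0.00184). Tmem67, a transmembrane protein of the primary cilium, was at 2.49, 2.66 and 2.52 FPKM in CKO sham and 2.40, 2.23 and 2.15 FPKM in CKO IRI, and at 2.56, 2.51 and 2.58 FPKM in WT sham, whereas WT IRI 13 and 24 were listed at 0 and WT IRI 49 at 0.092 FPKM (interaction 1.66, SE 0.15, adjusted p = 0.00234).

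For the other genes a call in one genotype and not in the other is no shown difference. Cyp4a14 changed by 1.42 in CKO and -0.12 in WT (interaction 1.54, SE 0.32, adjusted p = 0.175). Its sham levels differed, at 81.4, 136 and 130 FPKM in CKO and 172, 152 and 177 FPKM in WT. After injury it was at 382, 248 and 297 FPKM in CKO and 193, 137 and 137 FPKM in WT. Cyp4a10, a hydroxylase next to it, changed by 0.79 in CKO, which did not pass (adjusted p = 0.102), and by -0.94 in WT (interaction adjusted p = 0.175). Ehhadh, of peroxisomal beta oxidation, changed by -0.66 in CKO (adjusted p = 0.0995) and -2.25 in WT (interaction 1.59, adjusted p = 0.175). Sgk1 changed by 1.20 and -0.04 (interaction adjusted p = 0.18), Arntl by 1.67 and 0.58 (adjusted p = 0.185), Bhlhe41 by -0.81 and -0.06 (adjusted p = 0.185) and Iigp1 by -1.63 and -0.28 (adjusted p = 0.185). Sgk1 was at 51.8, 50.1 and 33.4 FPKM in CKO sham but 77.7, 73.4 and 85.4 FPKM in WT sham. Bhlhe41 was at 1.595, 2.025 and 2.118 FPKM in CKO sham but 1.378, 0.825 and 1.25 FPKM in WT sham. The part of such sham differences in the interactions was not tested. The fatty acid oxidation list had 6 rises and 1 fall in CKO and 1 rise and 23 falls in WT, with medians of 0.13 and -0.58. The proximal tubule transport list had 4 falls in CKO and 35 in WT, and amino acid catabolism 2 and 41. WT IRI 49 weighed heavily on the interaction: without it 310 of the 11968 tested genes were called higher and 253 lower. Its proximal tubule transport median over the CKO sham mean was -0.55, beside -1.70 and -1.49 in WT IRI 13 and 24. CKO IRI 7, 15 and 29 stood at -0.38, -0.47 and -0.77. For tubular injury genes WT IRI 49 stood at 1.88, WT IRI 13 and 24 at 2.84 and 2.82, and the injured knockouts at 1.83, 1.11 and 2.41. Leaving it out removed the injured WT library nearest the injured knockouts in these lists, so such calls are no shown genotype difference. The higher calls without WT IRI 49 included 10 of 51 fatty acid oxidation genes, 11 of 45 proximal tubule transporters and 9 of 50 amino acid catabolism genes. In these the change after injury was higher in CKO than in WT IRI 13 and 24. The lower calls included 23 of 57 ribosomal protein genes and 7 of 30 tubular injury genes, whose change was lower in CKO. Without WT IRI 49, Cyp4a10 had an interaction of 2.07 (adjusted p = 0.016), Ehhadh of 1.70 (adjusted p = 0.0331), Cyp4a14 of 1.46 (adjusted p = 0.0483) and Arntl of 0.75 (adjusted p = 0.046), while Sgk1 (adjusted p = 0.056) and Bhlhe41 (adjusted p = 0.0622) did not pass.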

How the data were processed

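The deposited table held 1 value per transcript for 25790 transcripts in 12 libraries. The FPKM values were made by the authors with cutadapt, HISAT2 2.1.0 and StringTie, per the submitters' processing notes, which name build GRCh38 although the transcript IDs are mouse; no unit stands in the column names, and TPM is another output of StringTie. Read depth is not known, so no counting interval is given, and a 0 is only a value listed at 0. Transcripts were matched to GENCODE mouse release 21 (25740 matched) and summed to 13465 genes. Genes with 1 FPKM in at least 3 of the 6 knockout libraries were fitted as log2(FPKM + 1) with limma 3.58.1 in R 4.3.3, using 1 mean per group over all 12 libraries, a shared spread with a trend, and Benjamini-Hochberg adjustment. The log2 change understates the change of low genes. Every adjusted p in the text comes from limma. The fit was tested on simulated data: false calls stayed near the set rate where a gene had 1 spread in all groups, and exceeded it where each group had its own spread, more so with 12 libraries than with 6. Alternatives were other pseudocounts, filters, scalings and weights, the 6 knockout libraries alone, a block among shams and leaving out each library. Genes were named by rule: Gpx3, the 12 largest rises and falls without overlap, the 3 most abundant rises and falls, up to 5 members of each list by smallest p, and the leading interaction genes; genes outside it are marked or are markers. The members and gene lists were chosen with earlier results of these data known. Promoter windows came from RefSeq (GRCm38.p6) and were matched by symbol. Some genes of the lists are counted but not reported by name or drawn here.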

Additional observations from a re-analysis of the deposited data

Results flagged for a closer look

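Of the 11968 genes tested, 2 differed between the genotypes in their change after IRI by the interaction test in limma. Tmem67 had a CKO change of -0.13 and an interaction of 1.66 (SE 0.15, adjusted p = 0.00234), with injured wild-type libraries at or near 0 and all knockout libraries above 2 FPKM. Pofut2 fell in CKO by 1.18 and was higher in WT after injury by 0.51, with an interaction of -1.69 (SE 0.14, adjusted p = 0.00184).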

How the results depend on the processing

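The number of genes higher in CKO after IRI (671) was 2142 with array weights, 411 with a filter at 5 FPKM, 367 with the 6 knockout libraries alone and 344 with the replicate block among the shams, and leaving out 1 library gave 321 to 1006. The number lower (180) was 1249, 116, 108 and 66 under the same settings and 297 with quantile normalization, and leaving out 1 library gave 60 to 370. The interaction called 361 genes higher and 482 lower with array weights. With the filter at 5 FPKM limma called 0 higher, where 748 genes had an unadjusted p under 0.05. Tmem67, the gene called higher in the main fit, lies under 5 FPKM in every CKO library, so that filter removed it before the test. Leaving out 1 library gave 1 to 310 higher and 1 to 253 lower. Gpx3 changed sign, to -0.01, without CKO IRI 7 and without CKO sham 1, and its change lay between -0.01 and 0.2 on leaving out 1 library; it was 0.34 with quantile normalization and 0.02 with trimmed-mean scaling. Of 143 named genes called, 80 were still called with the 6 libraries alone, 74 with the block and 66 to 143 on leaving out 1 library. The cause of these differences was not tested. No paired analysis was possible because the knockout sham and knockout IRI libraries share no replicate numbers; the block used numbers shared by the 2 sham groups. Depth is not known, so counting error could not be set against these values.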

Other observations

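Outside the gene lists, 193 genes kept their calls throughout, and those named here were chosen after their values were seen. Further genes of cell division were among them: Cdca3, a mitotic regulator, was at 1.10, 0.978 and 0.642 FPKM in CKO sham 1, 2 and 3 and 17.9, 12.6 and 11.9 FPKM in CKO IRI 7, 15 and 29, and Lmnb1, which encodes lamin B1, rose by 2.02 (SE 0.24). Nrg1, a ligand of ErbB receptors, went from 0.797, 0.535 and 0.895 FPKM to 5.39, 2.52 and 6.42 FPKM, and Fgf18 from 0.283, 0.290 and 0.301 FPKM to 3.76, 1.34 and 2.62 FPKM. Aldh1a1 and Aldh1a7, of which the first makes retinoic acid, rose by 2.12 (SE 0.29) and 2.62 (SE 0.39). They are close homologs, between which reads can be hard to assign. Of acute phase genes, Serpina3n went from 0.315, 0.262 and 0.156 FPKM to 6.36, 2.79 and 12.4 FPKM, and Saa1 was listed at 0 in all 3 shams and at 1.68, 2.49 and 5.11 FPKM after injury. Nrg1, Fgf18, Serpina3n and Saa1 passed the filter only through the injured libraries and had to be higher there.

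Apln, the ligand apelin, was at 9.53, 10.45 and 8.37 FPKM in the shams and 1.55, 3.75 and 2.42 FPKM after injury (log2 change -1.59, SE 0.29), and its receptor Aplnr, which passed the filter only through the shams, fell by 1.44 (SE 0.27). Igfbp3, which binds insulin-like growth factors, was at 64.2, 60.1 and 84.2 FPKM and fell to 13.3, 26.1 and 24.8 FPKM. Gimap8, an immune GTPase, fell from 14.4, 14 and 15.4 FPKM to 3.08, 3.99 and 4.4 FPKM. The endothelial marker sum was lower in the same libraries, as given above, and its part in these falls was not tested.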
